A study of Schizosaccharomyces pombe with 36 samples.

Results

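The efficient origins of wild type fission yeast are 244 places on the 3 chromosomes of Schizosaccharomyces pombe where replication forks most often set out in both directions. They were chosen from the measurements themselves. For each edge between 300-bp bins a step was computed, the log2 ratio of fragment ends on the strands that forks leaving the edge would mark over ends on the opposite strands, in 10 bins (3 kb) on each side with 0.5 ends added, and with the sign turned for DNA polymerase delta. An edge was a member where the mean step of the 4 wild type libraries grown at 34 °C was the highest within 10 bins on either side and reached 1.2. Of 611 local maxima with a mean step of 0.3 or more, 244 were members and 367 are called other sites here. Members are named by the nearest annotated protein-coding gene, and the name says nothing about a role of that gene.

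Polymerase usage sequencing maps where each replicative polymerase has worked. A mutant polymerase leaves extra ribonucleotides in the strand it makes, cells without ribonucleotide excision repair keep them, and alkali cuts the DNA there. DNA polymerase epsilon makes the leading strand and DNA polymerase delta the lagging strand, so the strand on which each leaves its marks switches where forks diverge, at an origin. Fission yeast origins have no shared sequence element of the budding yeast kind. They lie in AT-rich DNA between genes, to which the Orc4 subunit of the origin recognition complex binds through AT-hooks, and each fires in a share of cell cycles. Rif1 restrains the firing of many origins through protein phosphatase 1, Taz1 is the double-stranded telomere binding protein, and Stn1 acts with Ten1 in finishing replication near telomeres.

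The 9 conditions were set side by side, each with 2 libraries per polymerase (4 in all). Deletion of taz1 is labelled taz1::NAT with no temperature given, in an h- background with rnh201-RED:kan and the markers ura4-D18, leu1-32 and ade6-704. The stn1-226 strains, a temperature-sensitive allele, carried rnh201Δ::hphNT1, leu1-32 and ura4- and had their polymerase alleles between loxp and loxm3 sites. A second set of such strains is labelled with rif1Δ as well. Deletion of rif1 is labelled rif1::BSD with rnh201::kan and the same 3 markers, and wild type shares the background given for taz1 deletion. All but taz1 deletion were grown at 25 and at 34 °C, to log phase in rich medium. The polymerase delta allele is written cdc6-L591G, or cdc6-I591G in the stn1-226 strains, and the polymerase epsilon allele is cdc20-M630F. No strain was therefore free of a polymerase mutation or of an rnh201 lesion, and comparisons with wild type other than that of taz1 deletion also differ in background. Each condition and polymerase is 1 labelled strain, so its replicates may be technical, and p-values measure only the spread between these samples.

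Several libraries stand apart. Ends per bin over rif1 were 0.018 ± 0.016 of the library's median at 25 °C and 0.012 ± 0.0076 at 34 °C in rif1 deletion (SD, n = 4 each). In the stn1-226 libraries also labelled rif1Δ they were 1.10 ± 0.12 and 1.09 ± 0.083 (SD, n = 4 each), which goes against that label. Ends over taz1 were 0 in the taz1 deletion libraries. The strand signal, given as the SD of the log2 strand ratio along the genome, was 0.75 to 0.93 in taz1 deletion and 1.0 to 2.52 in the 32 other libraries. Library totals ran between 2211932 and 25704364 ends, and the sparsest member window held 527. By the fine pattern of ends along the genome, the libraries other than taz1 deletion were sorted into 3 classes, a number set in advance. The Pol delta and Pol epsilon libraries of the same condition and replicate number were sorted together as a pair. Rif1 deletion and wild type at 25 °C share no class.

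The DNA of the strongest members shows the base composition typical of them. For 4 of the 6 members with the highest mean step in wild type at 34 °C, and for the scl1 member, added after its values were seen because of its fall below, the most AT-rich 300 bases within 1.5 kb of the switch are printed from the RefSeq genome ASM294v3, forward strand, 5′ to 3′. Capitals mark runs of at least 6 A or at least 6 T (AAAAAA or TTTTTT, which are each other's reverse complement). The stretches lie at III:369347-369646 (bqt3), I:4087845-4088144 (mnl1), I:3952701-3953000 (lsk1), II:3422047-3422346 (smg1) and II:956903-957202 (scl1).
bqt3: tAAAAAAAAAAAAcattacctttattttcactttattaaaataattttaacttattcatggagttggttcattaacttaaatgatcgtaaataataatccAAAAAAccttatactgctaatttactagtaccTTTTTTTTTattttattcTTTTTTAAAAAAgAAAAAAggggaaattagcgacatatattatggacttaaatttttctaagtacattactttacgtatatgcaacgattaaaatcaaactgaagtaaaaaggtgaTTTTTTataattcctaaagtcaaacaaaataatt
mnl1: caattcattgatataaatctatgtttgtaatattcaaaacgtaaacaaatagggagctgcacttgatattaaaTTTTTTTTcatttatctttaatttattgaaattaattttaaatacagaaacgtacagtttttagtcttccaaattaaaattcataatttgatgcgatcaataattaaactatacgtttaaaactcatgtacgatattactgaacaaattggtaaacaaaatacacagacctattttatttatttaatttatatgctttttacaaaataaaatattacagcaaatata
lsk1: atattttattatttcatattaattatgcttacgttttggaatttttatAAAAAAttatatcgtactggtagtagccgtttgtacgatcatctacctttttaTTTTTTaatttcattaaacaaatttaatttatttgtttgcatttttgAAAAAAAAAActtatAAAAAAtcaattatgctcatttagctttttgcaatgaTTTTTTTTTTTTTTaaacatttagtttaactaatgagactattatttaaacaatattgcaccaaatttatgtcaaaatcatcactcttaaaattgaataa
smg1: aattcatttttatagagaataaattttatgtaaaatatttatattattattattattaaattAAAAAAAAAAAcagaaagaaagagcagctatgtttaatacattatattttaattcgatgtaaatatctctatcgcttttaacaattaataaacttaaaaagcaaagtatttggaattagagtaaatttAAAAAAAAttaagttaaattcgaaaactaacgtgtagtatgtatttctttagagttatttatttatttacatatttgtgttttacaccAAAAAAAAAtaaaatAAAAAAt
scl1: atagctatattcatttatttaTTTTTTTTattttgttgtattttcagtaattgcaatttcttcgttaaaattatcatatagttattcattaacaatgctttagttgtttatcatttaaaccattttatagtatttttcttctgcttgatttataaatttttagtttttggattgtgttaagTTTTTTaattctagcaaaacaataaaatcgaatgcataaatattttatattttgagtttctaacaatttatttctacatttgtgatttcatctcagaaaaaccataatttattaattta

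None of these 5 stretches holds a coding base. Their A+T content was between 79.0% (bqt3 and mnl1) and 83.7% (smg1). The number of runs differed widely: 7 at bqt3, only 1 at mnl1 and 2 at scl1. The longest run, 14 T, lies in the lsk1 stretch, against a longest run of 8 at mnl1 and at scl1. A run of this kind is common. It occurred in 55.2% of all 41905 bins of 300 bases, in the AT-richest stretch of 240 of 244 members (98.4%) and in that of 92.4% of other sites. High A+T content set the members further apart: 238 of 244 members (97.5%) had a stretch of at least 75% A+T, as did 71.1% of other sites, whereas 1.67% of all bins reached that content. The stretch at members and other sites is the richest of many, so the share of single bins is a background and not a matched one.

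Nearly all efficient origins lay between coding regions. This held for 242 of 244 members (99.2%), for 85.0% of other sites and for 39.6% of all 41848 bin edges. The 2 exceptions fell in the coding regions of wss1, a DNA repair metallopeptidase, and SPAC688.16, an uncharacterized gene. Of the 242, 62.4% lay between divergent genes, 31.8% between tandem genes and 4.96% between convergent ones. For other sites the shares were 47.4%, 42.3% and 10.3%, and over all intergenic edges 35.8%, 48.7% and 14.7%. The intervals were similar in length, with a median of 1906 bp at members and 1694 bp at other sites.

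A+T content of the 1 kb around the switch had a median of 72.3% at members, 69.8% at other sites and 64.1% over all edges. Runs of A or T in that window had medians of 7, 5 and 3, and 82.4%, 58.3% and 23.7% held at least 5. The rise in A+T was narrow. Within 300 bp of the switch the mean was 74.1% at members and 70.0% at other sites, and at 4.5 to 6 kb it was 63.3% at members and 64.1% at other sites. The centre of the AT-richest stretch lay within 0.6 kb of the switch at 235 of 244 members and at 281 of 367 other sites. Among the members, content said little about the size of the step: across the 244, which share libraries and windows, Spearman's rho of the step with A+T content was 0.27 in wild type at 34 °C and 0.26 at 25 °C, and with the number of runs it was 0.08 and 0.03.

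**Figure D1:**
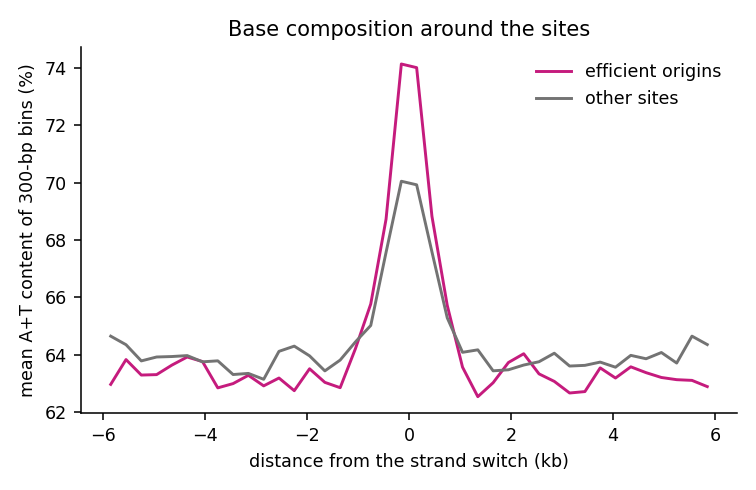
Mean A+T content of 300-bp bins (percent, vertical axis) against distance from the strand switch in kb, for the 244 efficient origins and the 367 other sites. The 2 bins next to the switch average 74.1% at efficient origins and 70.0% at other sites, and the curves lie near 64% a few kb away.

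The highest step in wild type at 34 °C belonged to a site on chromosome III at position 369601, in the divergent interval beside bqt3, which encodes a protein of meiotic bouquet formation. Its 4 library values were 3.11 and 2.66 for Pol delta and 2.40 and 3.07 for Pol epsilon, with a mean of 2.81. In raw ends, the first Pol delta library had 92.1% of 8723 ends left of the switch on the forward strand and 14.1% of 5780 ends right of it. The first Pol epsilon library showed the mirror image, with 16.8% of 3422 ends left and 85.1% of 2993 ends right on the forward strand. Each polymerase thus changed strand within the 20-bin window at this site.

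The other sites of the top 10 in wild type at 34 °C had mean steps between 2.45 and 2.69. They lay beside mnl1 (an alpha mannosidase, 2.69), lsk1 (a cyclin-dependent protein kinase, 2.61), SPCC61.05 (uncharacterized, 2.57), ctr5 (a copper transporter subunit, 2.55), smg1 (an Sm snRNP core protein, 2.52), snd1 (a tudor domain nuclease, 2.52), phb2 (prohibitin, 2.50), msm1 (a methionine tRNA ligase, 2.46) and cut1 (separase, 2.45). Of the 10 sites 7 lay in divergent intervals, and ctr5, smg1 and phb2 lay in tandem ones. Over all members the mean step had a median of 1.85, and 85 members reached 2. The SD over the 4 wild type libraries had a median of 0.41 among members. The medians of these libraries themselves ran between 1.48 and 2.26, so this SD includes shifts that members share. Differences between neighbours in this order were not tested.

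The threshold cut through a continuous range. Just inside it were kei1 (1.209), rpc1 (1.215) and pma1 (1.219), and just outside were bgs3 (1.196), emc3 (1.193) and clu1 (1.192), all as mean steps in wild type at 34 °C. A threshold of 1.0 would have given 287 members and one of 1.4 would have given 212. The 4 wild type libraries at 25 °C, which the rule did not use, gave 238 sites by the same rule, of which 230 lay within 900 bp of a member. That is 94.3% of the members and 96.6% of the 238.

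Members were unevenly spread over the genome. Chromosome III had 23.6 per Mb, chromosome I had 19.4 and chromosome II had 17.2, and members made up 50.9%, 42.4% and 32.2% of the sites there. The median step in wild type at 34 °C was 2.06 on chromosome III, 1.79 on I and 1.73 on II, and at 25 °C it was 1.89, 1.75 and 1.75. Neighbouring members were a median of 43.5 kb apart. The closest pair was mto1 and tef3 at 5.4 kb, and the longest gap was 167.4 kb, between rpl3703 and tif310 on chromosome I, with 6 other sites inside it. The scl1 member borders long gaps on both sides, 133.5 kb to lsc1 and 147.9 kb to cyp3, with 5 and 4 other sites inside. Within 100 kb of a chromosome end lay 9 of 244 members and 32 of 367 other sites. A tRNA gene lay within 1 kb of 29 members and 26 other sites. The genome-wide share was computed for neither, so these counts are not read as traits of members.

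Averaged over its libraries, each condition had a median step above 0 at efficient origins, and taz1 deletion had the smallest. The median step over members, averaged over the 4 libraries of a condition (± SD), was 1.85 ± 0.22 in the stn1-226 libraries also labelled rif1Δ, 2.06 ± 0.41 in stn1-226, 1.68 ± 0.12 in rif1 deletion and 1.81 ± 0.25 in wild type, all at 25 °C. At 34 °C it was 1.72 ± 0.37 in the stn1-226 libraries also labelled rif1Δ, 1.74 ± 0.42 in stn1-226, 1.38 ± 0.52 in rif1 deletion and 1.82 ± 0.37 in wild type. In taz1 deletion it was 0.37 ± 0.33. Other sites had values of 0.13 in taz1 deletion and 0.45 to 0.61 elsewhere. Of the 244 members, 238 had a step above 0 in all 32 libraries other than taz1 deletion.

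**Figure D2:**
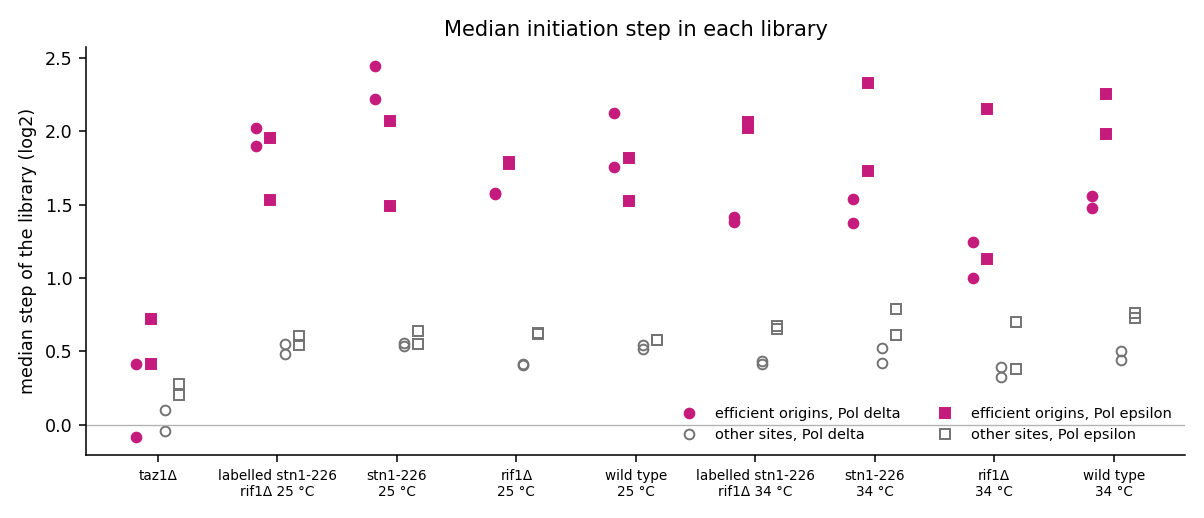
Median step (log2, vertical axis) of each of the 36 libraries by condition, with filled points for efficient origins and open points for other sites, circles for Pol delta and squares for Pol epsilon. In the 32 libraries other than taz1 deletion the efficient origins sit between 1.0 and 2.45, and the taz1 deletion libraries sit between -0.08 and 0.72.

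The members were chosen on the 34 °C wild type libraries, so their value is no test. Among the 8 conditions other than taz1 deletion the mean of the library medians ran between 1.38 and 2.06, and the 4 library medians of rif1 deletion at 34 °C ran between 1.0 and 2.15. Every taz1 deletion library lay below all 32 others. In rif1 deletion at 34 °C, both replicate 2 libraries had the lowest strand signal outside taz1 deletion, 1.0 and 1.04. Divided by the library's strand signal, the median step was 0.98 to 1.18 in the 8 conditions other than taz1 deletion and 0.43 in taz1 deletion. Total ends at members, which the rule did not use, were 1.0 to 1.08 times the library's median bin in every condition, close to the 1.03 to 1.08 at other sites.

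The order of members was also kept in part. Over the 244 members, which are no replicates of each other, Spearman's rho of the condition's mean step with that of wild type at 34 °C was 0.96 in stn1-226 at 34 °C, 0.90 in wild type at 25 °C, 0.89 in stn1-226 at 25 °C, 0.72 and 0.64 in rif1 deletion at 34 and 25 °C, and 0.70 and 0.63 in the stn1-226 libraries also labelled rif1Δ. All of the top 10 stayed among the highest 20 in both stn1-226 conditions and in wild type at 25 °C. In rif1 deletion 7 of them did so at 25 °C and 8 at 34 °C, and cut1 had the lowest place of the 10, rank 91 at 25 °C and rank 53 at 34 °C. In the stn1-226 libraries also labelled rif1Δ 7 did so at each temperature, and cut1 was again lowest, at ranks 73 and 60. Spearman's rho of single libraries was 0.49 to 0.82 in wild type at 25 °C and 0.49 to 0.61 in rif1 deletion at 25 °C. The difference between these orders was not tested.

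The position of the switch barely moved. In wild type at 25 °C the highest step lay within 1 bin of the member at 241 of 243 members with a full window, and in the conditions with rif1 deletion or its label this held at 236 to 242. In taz1 deletion it held at 227 of 240. For other sites the share within 1 bin was 85.2% in wild type at 25 °C and 74.1% in taz1 deletion.

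Strand bias reached far from the switch. Values here are medians over sites in each library, averaged over the 4 libraries of a condition. In wild type at 25 °C the step at members was 1.25 within 0.6 kb and 2.0 at 0.6 to 1.5 kb. It was 1.87 at 1.5 to 3 kb, 1.49 at 3 to 6 kb and 0.95 at 6 to 12 kb. Other sites had 0.09 at 6 to 12 kb. In rif1 deletion at 25 °C the members had 1.01 ± 0.075 at 6 to 12 kb, against 0.95 ± 0.071 in wild type (SD, n = 4 each), so the ranges of the 2 conditions overlap.

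**Figure D3:**
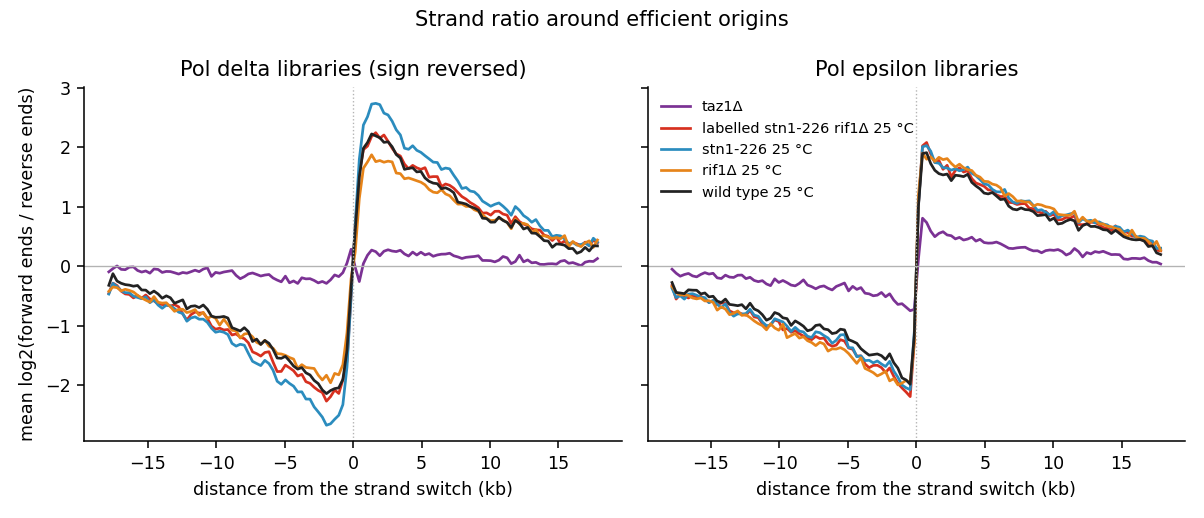
Mean log2 ratio of forward over reverse ends (vertical axis, sign reversed for Pol delta) against distance from the strand switch in kb, averaged over efficient origins, for taz1 deletion and the 4 conditions at 25 °C. All 5 curves change sign near the switch, and taz1 deletion is the flattest in both panels.

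The taz1 deletion libraries had much smaller steps at efficient origins and at other sites alike. The mean of the library medians was 0.37 at members, against 1.81 in wild type at 25 °C. At other sites it was 0.13 against 0.55. The bins of the taz1 deletion libraries cover 240 of the 244 members. At bqt3 the steps were 0.94 and -0.09 for Pol delta and 0.20 and 0.89 for Pol epsilon in taz1 deletion, against 3.84 and 2.65 for Pol delta and 1.66 and 2.52 for Pol epsilon in wild type at 25 °C. At smg1 they were 0.65, -0.17, 0.50 and 0.80 in taz1 deletion, against 2.65, 2.46, 2.36 and 2.58 in wild type at 25 °C, with the Pol delta replicates first. At both sites every taz1 deletion library lay below every wild type library.

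By edgeR's quasi-likelihood test with Benjamini-Hochberg adjustment over all sites, 234 of 240 members fell in taz1 deletion against wild type at 25 °C and all 240 changes were below 0, beside 69.6% of all 592 sites tested. The median change was -1.44 at members and -0.42 at other sites. Members were chosen for large steps, so a larger log2 fall there is no result about efficient origins as a class. Largest were mnl1 (-2.19 ± 0.31, adjusted p = 5.18e-06), bqt3 (-2.18 ± 0.36, adjusted p = 2.32e-05) and smg1 (-2.07 ± 0.27, adjusted p = 2.1e-06), each as log2 change ± SE, followed by SPBC20F10.03 (-2.06), ctr5 (-2.04) and SPCC61.05 (-2.04). All 4 libraries lay below all 4 of wild type at 203 of 240 members, against 47% of all sites.

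The strand signal of these libraries along the whole genome was 0.75 to 0.93, against 1.46 to 2.20 in wild type at 25 °C. With steps divided by that signal and returned to the median scale, limma called 217 members, beside 52.0% of all sites, and the median change was -1.05. The second Pol delta library had a median step of -0.08, with 81 of 240 members above 0. Without both replicate 2 libraries 222 members were called, and with Pol epsilon alone 138. These counts are given without the share over all sites and are no result about members as a class. The mean step of the 4 libraries was nevertheless above 0 at all 240 members, between 0.17 and 0.52 (SPCC61.05), and its Spearman's rho with wild type at 34 °C was 0.76. That value holds for the mean only: in single taz1 deletion libraries rho ran between -0.09 and 0.44. The labels give taz1 deletion no temperature, so growth temperature and genotype cannot be told apart here.

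A few efficient origins were lower in rif1 deletion at 25 °C, and 0 rose past the threshold. Sites were chosen as maxima of the wild type step at 34 °C, which favours falls from wild type over rises. The split between falls and rises at members is therefore no result about a direction of change. The strongest fall was at scl1, on chromosome II at position 957301, 333 bp from the gene of proteasome core subunit alpha 1 and in a divergent interval. Its steps were 0.91 and 0.95 for Pol delta and 0.57 and 0.80 for Pol epsilon in rif1 deletion, against 2.12 and 1.96 for Pol delta and 1.26 and 1.65 for Pol epsilon in wild type. Every rif1 deletion library lay below every wild type library. The log2 change was -0.94 ± 0.19 (SE, adjusted p = 0.00598 by edgeR's quasi-likelihood test with Benjamini-Hochberg adjustment). In ends, the first Pol delta library had 59.4% of 3998 ends left and 30.3% of 5393 ends right of the switch on the forward strand in rif1 deletion, against 72.1% of 3196 left and 8.53% of 2908 right in wild type.

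At rpc1, beside the gene of the largest RNA polymerase III subunit (chromosome II, position 1254901), the switch was all but gone. The steps were 0.14, -0.02, 0.09 and 0.13 in rif1 deletion, against 1.01, 1.30, 0.18 and 0.88 in wild type at 25 °C (Pol delta replicates first). The groups did not overlap, though the lowest wild type library came within 0.05 of the highest rif1 deletion library. The change was -0.76 ± 0.14 (SE, adjusted p = 0.00443, edgeR's quasi-likelihood test). On the right of this site the second Pol epsilon library had 32.9% of ends on the forward strand in rif1 deletion, against 56.9% in wild type, while the left side had 27.1% against 25.0%.

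The 2 other members that fell were smaller changes on chromosome III. At utp21, a U3 snoRNP protein gene, the steps were 1.5, 1.61, 1.05 and 1.09 in rif1 deletion, against 2.58, 2.29, 1.52 and 1.52 in wild type, with a change of -0.67 (adjusted p = 0.0104, edgeR's quasi-likelihood test). At lmb1, an LMBR1-like membrane protein gene, they were 1.24, 1.06, 1.41 and 1.29 in rif1 deletion, against 2.29, 1.81, 1.72 and 1.79 in wild type, with a change of -0.65 (adjusted p = 0.0227, edgeR's quasi-likelihood test). Within each polymerase the rif1 deletion libraries lay below those of wild type at both sites.

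Those 4 of 244 members stand beside a background of 4.09% of all 611 sites called in either direction, 1.64% fallen and 2.45% risen. Fallen members are likewise 1.64% of the 244, so the count is no result about efficient origins as a class. An unadjusted p under 0.05 was found at 34 of 244 members, beside 14.2% of all sites. The median change was -0.08 at members and -0.06 at other sites. The calls at scl1 and rpc1 were kept whichever of the 8 libraries was left out, the call at utp21 was lost in 2 of those fits and that at lmb1 in 7. Without both wild type replicate 2 libraries 0 members were called, with Pol epsilon alone 0 and with Pol delta alone 10, beside 1.15%, 0.164% and 4.26% of all sites. With the class of end pattern as a block the changes were -1.05 at scl1 and -0.79 at rpc1, and 52 members were called, all of them fallen, beside 20.6% of all sites called. The largest change upward did not pass: SPAC2H10.04, named after its value was seen, had 1.27 ± 0.47 (SE) with an adjusted p of 0.175 by edgeR's quasi-likelihood test.

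**Figure D4:**
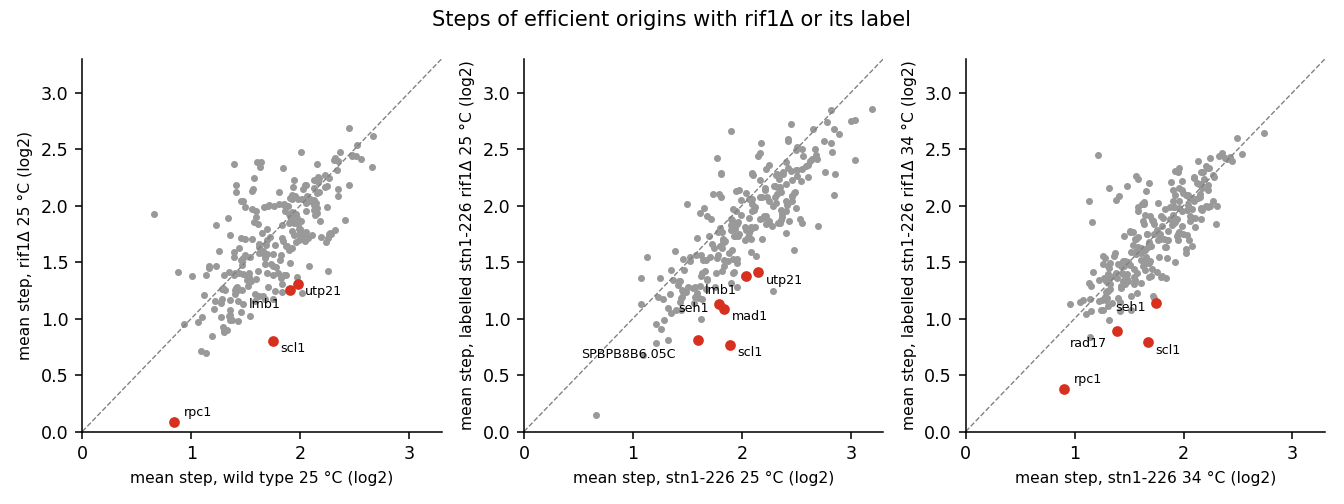
Mean step (log2) of each of the 244 efficient origins in rif1 deletion or in the libraries so labelled (vertical axes) against wild type or stn1-226 (horizontal axes), with members that fell past the threshold and are within the naming rule in red and the line of equal steps dashed. The red points at scl1 lie at 0.81, 0.77 and 0.79 on the vertical axes, below the line in each panel.

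The stn1-226 libraries also labelled rif1Δ, in which rif1 was covered, were set against stn1-226 of the same background. At 25 °C 7 members fell and 0 rose, beside 3.44% of all sites called in either direction, 2.13% of all sites fallen and 1.31% risen. The choice of sites on wild type can favour falls here too. At both temperatures the order of members in stn1-226 was closer to wild type than that in the libraries also labelled rif1Δ. The split between falls and rises is therefore no result about a direction of change at either temperature. At scl1 the steps were 0.93, 1.31, 0.71 and 0.13 in those libraries, against 2.08, 2.68, 1.82 and 0.98 in stn1-226 (Pol delta replicates first). The groups overlapped over all 4 libraries but not within a polymerase. The change was -1.12 ± 0.19 (SE, adjusted p = 0.00226, edgeR's quasi-likelihood test), with -1.13 and -1.11 in the 2 classes of end pattern. The next were SPBPB8B6.05C (an L-asparaginase gene, -0.78), mad1 (a spindle checkpoint gene, -0.74), utp21 (-0.74), lmb1 (-0.66) and seh1 (a WD repeat subunit of the GATOR2-SEACAT complex, -0.65), with adjusted p-values of 0.0124, 0.0182, 0.011, 0.0268 and 0.0268.

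At 34 °C 5 members were called and 4 of them fell, beside 4.58% of all sites called, 1.47% fallen and 3.11% risen. At scl1 the steps were 0.87, 0.71, 0.61 and 0.97 in those libraries, against 1.72, 1.58, 1.93 and 1.47 in stn1-226, with no overlap and a change of -0.88 (adjusted p = 0.00683, edgeR's quasi-likelihood test). At seh1 they were 1.30, 1.28, 0.97 and 0.99 in those libraries, against 1.87, 1.53, 1.91 and 1.69 in stn1-226, again with no overlap (Pol delta replicates first at both sites). The others that fell were seh1 (-0.62, adjusted p = 0.0306), rpc1 (-0.53, adjusted p = 0.0411) and rad17 (a checkpoint clamp loader gene, -0.50, adjusted p = 0.0165).

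The calls at seh1 and rpc1 at 34 °C were lost in 7 and 8 of the 8 fits that leave out a library and the scl1 call in 2. With either polymerase alone 0 members were called at 34 °C. At 25 °C 0 were called with Pol epsilon alone or with only the 2 compared conditions in the fit, and between 2 and 10 when a library was left out. Other fits called more members. At 25 °C a flank of 20 bins gave 21, beside 11.2% of all sites, and the class of end pattern as a block 36, beside 18.0%. At 34 °C a fit of only the compared conditions gave 14, beside 6.71% of all sites, and the class block 16, beside 11.5%.

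**Figure D5:**
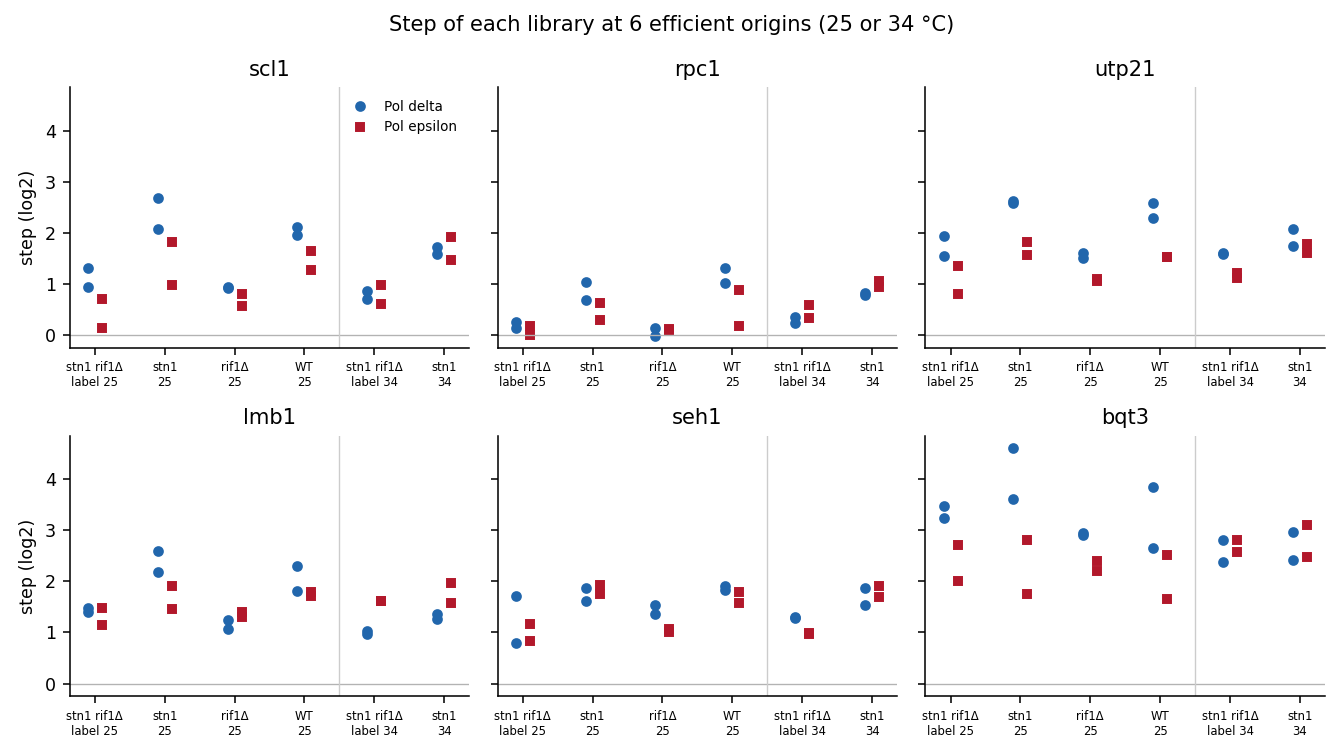
Step (log2, vertical axes) of each library at 6 efficient origins, in the stn1-226 libraries also labelled rif1Δ, stn1-226, rif1 deletion and wild type at 25 °C and, right of the line, the libraries so labelled and stn1-226 at 34 °C, with Pol delta in blue and Pol epsilon in red. At scl1 and rpc1 the points of the first member of each pair lie low within each polymerase, at seh1 they lie low at 34 °C, and at bqt3 all points exceed 1.6.

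Between rif1 deletion against wild type and the labelled libraries against stn1-226 at 25 °C, which share no library, 3 fallen members were in common: lmb1, scl1 and utp21. They are 75% of the 4 and 42.9% of the 7. Over all sites 6 fell in both, 60% of the 10 in rif1 deletion and 46.2% of the 13 in the labelled libraries, so the overlap is no result about efficient origins as a class. Only scl1 was called in all 3 comparisons that carry rif1 deletion or its label. The nearest site that rose past the threshold lay 50.1 kb from scl1 in rif1 deletion (erv2). In the labelled libraries it lay 910.5 kb away at 25 °C (erf2) and 8.7 kb away at 34 °C (gap1). In rif1 deletion the median distance over members that did not fall was 237.15 kb, and rpc1 had 247.5 kb. In the labelled libraries that median was 478.8 kb at 25 °C and 272.4 kb at 34 °C. Whether the risen sites bear on the step at scl1 was not tested. Side by side, mad1 had changes of -0.58 in rif1 deletion (adjusted p = 0.0522), -0.74 in the labelled libraries at 25 °C (0.0182) and -0.52 in those at 34 °C (0.116), all by edgeR's quasi-likelihood test. At rad17 the changes were -0.38, -0.41 and -0.50, with adjusted p-values of 0.0756, 0.0652 and 0.0165. At rpc1 they were -0.76, -0.52 and -0.53 (adjusted p = 0.00443, 0.0512 and 0.0411). At seh1 they were -0.53, -0.65 and -0.62 (adjusted p = 0.0628, 0.0268 and 0.0306, the same test), so both came close to a call in all 3. Whether the change labelled rif1 deletion differed between the stn1-226 and wild type backgrounds at 25 °C, or between temperatures in stn1-226, was tested as an interaction. edgeR's quasi-likelihood test called 0 members in each, beside 0% of all sites, and DESeq2 and limma also called 0. Unadjusted p-values under 0.05 were found at 0 and 1 of 244 members, beside 0.327% of all sites in each. The median SE at members was 0.36 log2 in each, so only large differences could be called and equal changes are not shown.

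Against wild type at 34 °C, whose libraries chose the members, differences are given without a test. Rif1 deletion had lower steps, with a median difference of -0.44 at members and -0.14 at other sites, and after division by the strand signal -0.15 at members. All 4 libraries lay below all 4 of wild type at 10 of 244 members, beside 6.22% of all sites. The largest difference was -0.95 at mad1 and the highest was 0.66 at SPAC1093.07. In stn1-226 the median difference was -0.09, within a range of -0.39 (fic1) to 0.15 (pfl3), and 0 members lay wholly below wild type, beside 0.327% of all sites. In the stn1-226 libraries also labelled rif1Δ it was -0.13, with scl1 lowest at -0.84 and SPAC1093.07 highest at 1.18. There 9 members lay wholly below wild type and 3 wholly above, beside 5.24% and 1.8% of all sites.

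The stn1-226 allele alone moved no member past the threshold. Against wild type at 25 °C edgeR's quasi-likelihood test called 0 of 244 members, beside 0% of all sites, DESeq2 and limma called 0, and 2 members had an unadjusted p under 0.05, beside 1.64% of all sites. The median change was 0.26, and -0.01 with steps divided by the strand signal. In stn1-226 at 34 °C against 25 °C the count was also 0 by all 3 tools, beside 0% of all sites, with 24 members at an unadjusted p under 0.05, beside 6.55% of all sites, and a median change of -0.30, which was 0.20 after division. This count depended on the fit: Pol delta alone gave 137 members, beside 26.2% of all sites, and the class of end pattern as a block gave 49, beside 13.4%. Rif1 deletion at 34 °C against 25 °C gave 0 by edgeR's quasi-likelihood test, by DESeq2 and by limma, beside 0% of all sites, with 16 members at an unadjusted p under 0.05, beside 3.44% of all sites. Its median change of -0.31 was 0.02 without the replicate 2 libraries of rif1 deletion at 34 °C, and 37 members, of 45 sites in all, were called when the first Pol epsilon library at 34 °C was left out. Wild type at 34 °C against 25 °C, described without a test, had a median difference of 0.05, with 153 of 244 members higher at 34 °C.

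Total ends in the 6-kb window, on both strands, showed 1 call in the 5 comparisons tested. In rif1 deletion against wild type at 25 °C jmj1, beside a histone demethylase gene, was higher by 0.35 ± 0.073 (log2 ± SE, adjusted p = 0.0397, edgeR's quasi-likelihood test), beside 0.164% of all sites. That call was lost in 5 of the 8 fits that leave out a library. Taz1 deletion and stn1-226 against wild type had 0 members called, beside 1.01% and 0.491% of all sites, and the stn1-226 libraries also labelled rif1Δ against stn1-226 had 0 at both temperatures, beside 0% of all sites. DESeq2 also called 0 in those 4 comparisons, and an unadjusted p under 0.05 was found at 5 members in taz1 deletion (4.39% of all sites), 1 in stn1-226 (0.655%), and 2 at 25 °C (2.95%) and 0 at 34 °C (3.76%) in the labelled libraries.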

How the data were processed

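Polymerase usage sequencing was done in 36 libraries, 9 conditions with 2 replicates for each of DNA polymerase delta and epsilon. The deposited values are whole-number counts of fragment ends per 300-bp bin and strand, 72 tables in all. Per the labels' protocols, DNA was cut with alkali and fragments of 300 to 500 bp were taken. Per the submitters' processing notes reads were aligned with Bowtie2. Not given in the sources used here are its version, the way ends were counted and the build. Coordinates and genes are those of ASM294v3 (RefSeq). The bins were placed on it at set starts: 50000 bp for taz1 deletion, 15000 bp for chromosome III in the other replicate 1 libraries, and no offset otherwise. Taz1 deletion bins were rounded onto the grid, a shift of 100 bp. Checked against trial offsets, the placement used was the best in 108 of 108 library and chromosome pairs. It explained 5.67 to 63.0% of the variance of ends from base content, against at most 6.35% elsewhere.

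Members and lists were chosen with earlier results of these data known. At each of the 611 sites the opposed end counts of each library entered edgeR 4.0.16 (quasi-likelihood, library as a block, contrast averaged over polymerases), in 1 fit of 32 libraries (16 residual degrees of freedom), or of 36 for taz1 deletion (18). Sites needed a mean of 10 ends, which all 244 members passed. A call is a Benjamini-Hochberg adjusted p under 0.05. A simulation of the 25 °C comparison between rif1 deletion and wild type over the 611 sites called 92 of 100 sites changed by 1 log2, 38 of 100 changed by 0.5 and 6 of 411 unchanged. Comparisons with wild type at 34 °C carry no test. Named are the 10 highest members, up to 6 called per direction and comparison, and 3 sites on each side of the threshold. Some sequences and 1 called member are not reported here. Alternatives used DESeq2 1.42.0, limma 3.58.1, R 4.3.3, Python 3.11.15, other flanks, 1 polymerase, steps scaled by strand signal, end-pattern class or replicate number as a block, and libraries left out. No aligned depth per site was given beyond these counts, so SDs and SEs carry the precision.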

Additional observations from a re-analysis of the deposited data

How the results depend on the processing

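Values are numbers of members called. Here and in the next paragraph they are given without the share over all sites. They show how calls depend on the fit and are no result about members as a class. For rif1 deletion against wild type at 25 °C (4 in the report) DESeq2 gave 11, a flank of 20 bins 14, scaled steps 7, Pol delta alone 10, Pol epsilon alone 0 and end-pattern class as a block 52, and leaving out 1 library gave 2 to 5. For the stn1-226 libraries also labelled rif1Δ at 25 °C (7) DESeq2 gave 12, flanks of 5 and 20 bins 4 and 21, only the compared conditions 0, scaled steps 3, Pol delta alone 3, Pol epsilon alone 0 and class as a block 36, and leaving out 1 library gave 2 to 10. At 34 °C (5) flanks of 5 and 20 bins gave 0 and 11, only the compared conditions 14, scaled steps 8, either polymerase alone 0 and class as a block 16, and leaving out 1 library gave 1 to 4. For taz1 deletion (234) Pol epsilon alone gave 138, and leaving out 1 library gave 225 to 235. For stn1-226 at 34 against 25 °C (0) Pol delta alone gave 137 and class as a block 49. For rif1 deletion at 34 against 25 °C (0) leaving out 1 library gave 0 to 37. For total ends in rif1 deletion (1) DESeq2 gave 5, a flank of 5 bins 4, only the compared conditions 0, library totals without TMM 0 and class as a block 0, and leaving out 1 library gave 0 to 2. For total ends in taz1 deletion (0) library totals without TMM gave 1. Without both wild type 25 °C replicate 2 libraries, rif1 deletion gave 0 for steps and 0 for total ends. The class block and the fits without both libraries of a replicate were chosen after seeing the data, and the cause of these shifts was not tested. In rif1 deletion against wild type the class block leans on other conditions, among them wild type at 34 °C, which chose the members.

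Shared replicate numbers are not taken as pairs, since there are only 2 per condition. Deviations of same-numbered libraries correlated at 0.14 for rif1 deletion and wild type, -0.90 for stn1-226 and wild type, 0.87 and 0.61 for the stn1-226 libraries also labelled rif1Δ and stn1-226 at 25 and 34 °C, and 0.23 for taz1 deletion. With a replicate block the counts were 6, 0, 9, 5 and 237, and total ends in rif1 deletion gave 2. With the wild type numbers crossed stn1-226 against wild type gave 0. All other alternatives run stayed within 1.5 times, and of the single members named none changed sign. In the simulation changes of 0.5 log2 were called at 38 of 100 sites, so smaller changes may go uncalled.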

Other observations

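Some large differences did not pass the threshold. At SPAC1093.07, chosen after its values were seen, the steps at 34 °C were 2.12, 1.87, 2.63 and 3.16 in the stn1-226 libraries also labelled rif1Δ, against 0.70, 0.63, 1.81 and 1.72 in stn1-226 (Pol delta replicates first). All 4 lay above all 4, and the change of 1.23 ± 0.51 (SE) had an adjusted p of 0.322 by edgeR's quasi-likelihood test. In rif1 deletion at 25 °C this site had 2.53, 2.52, 2.22 and 2.20, against 2.70, 0.79, 0.22 and 1.86 in wild type.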
